A study of Homo sapiens with 30 samples.

Results

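H3K9me3 ChIP-seq was compared between HEK293T cells that received LINC00662 antisense oligonucleotides (ASOs) and cells that received a negative control ASO (NC). HEK293T is a line of human embryonic kidney origin transformed with a viral T antigen, and an ASO is a short DNA-like strand that pairs with an RNA and lowers its amount. Cells were crosslinked 48 h after transfection. The comparison took 12 of the 30 samples of the study, 3 ChIP and 3 input replicates for each ASO, where input is sheared chromatin without immunoprecipitation. The LINC00662 list is labelled as a mix of LINC00662 ASOs, and which of them it held is not given in the sources used here. Neither the labels nor the methods say whether the replicates came from separate cultures. Cells were transfected as a population of 1 line, and the peak lists hold no RNA, so the level of LINC00662 left in these cells was not analysed here.

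The members are all 144443 peaks of both H3K9me3 lists, of 431864 peaks in the 5 lists of the study. The NC list held 84170 peaks and the LINC00662 ASO list held 60273. An NC peak was called kept when it overlapped a LINC00662 ASO peak by at least 1 bp and lost otherwise, and a LINC00662 ASO peak without an NC partner was called new. With this rule, 62.1% of NC peaks were lost (52282 of 84170; 95% Wilson interval 61.8 to 62.4) and 44.4% of LINC00662 ASO peaks were new (26787 of 60273; 44.05 to 44.8). The authors merged the replicates before they called peaks. Each group is therefore 1 list, no error between replicates exists, and no test between the groups was made. All intervals below are 95% Wilson intervals. They take each peak as independent, so they cover counting error alone. Since no difference was tested, fewer, more and higher describe the pair of lists and not the conditions.

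Trimethylation of lysine 9 of histone H3 marks constitutive heterochromatin and silenced repeats. SUV39H1 and SUV39H2 write the mark at pericentromeric repeats, SETDB1 writes it where KRAB zinc finger proteins bind through TRIM28, and the HP1 proteins CBX1, CBX3 and CBX5 read it. Known strongholds of the mark outside centromeres are the zinc finger gene clusters, the protocadherin clusters and young retrotransposons such as LINE-1.

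The oligonucleotide sequences are shown because 1 of them nearly matches 21785 places in the genome, around which many NC peaks had no partner. In the lines below, capitals mark the 12-base word of each ASO that occurs most often on chromosomes 1 to 22 and X of the GRCh37 reference, counted on both strands.
LINC00662-ASO-1: tgtagTCTCTTATCTGCacc
LINC00662-ASO-2: ACTCTGTCTCAAataacttg
LINC00662-ASO-3: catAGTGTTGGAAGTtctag
ASOXNC23 (NC): ttctccgAACGTGTCACGTt

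The word of the NC ASO occurred 19 times, that of ASO-1 732 times, that of ASO-3 11297 times and that of ASO-2 128237 times. ASO-1 matched the genome exactly once, at chr19:28284662-28284681 (GRCh37), in an exon of LINC00662, which is transcribed from the minus strand. ASO-2 had no exact match in the genome, but its complement was present in 4 of 80 annotated LINC00662 transcripts, that is, only in spliced RNA. ASO-3 matched an exon of LINC00662 at chr19:28281738-28281757 and 105 places in all. A further 21785 places matched ASO-3 with at most 3 mismatches, against 238 for ASO-1, 2843 for ASO-2 and 23 for the NC ASO. Its letters resemble the second reading frame of the LINE-1 retrotransposon, which was not checked against a repeat annotation.

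Within 10 kb of the ASO-1 site there were 3 NC and 2 LINC00662 ASO peaks. Within 10 kb of the ASO-3 site in LINC00662 there were 2 NC peaks and 1 LINC00662 ASO peak. The peak nearest to the gene start, at chr19:28282487-28282828 in NC, was kept, with 28 fragments at its summit in NC and 27 in LINC00662 ASO. Along the whole of LINC00662 (chr19:28171980-28284913) both lists held 14 peaks, of which 8 NC peaks were kept and 6 LINC00662 ASO peaks were new.

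In numbers of peaks, the surroundings of the near matches of ASO-3 had a profile with a sharp border. Distances are given from the middle of the match to the peak summit, along the strand that carries the ASO sequence. In the stretch from 3 kb before to 2 kb after a match the NC list held 10719 peaks and the LINC00662 ASO list 3586, 0.335 times as many. In the adjoining stretch, 3 to 4 kb before a match, the lists held 4382 and 4357 peaks, 0.994 times as many. Everywhere else the ratio was 0.754 (68092 and 51369 peaks). Over all peaks under 43.9% GC, near a match or not, the lists held 22280 and 6219 peaks. That ratio was below that of the stretch, whose peaks were of mixed GC content. Among peaks within 1 kb of a match it was lower again in this lowest GC group, 0.156 (2934 and 457 peaks). In the highest pair of GC groups it was 1.07 and 1.22 near a match (109 and 65 NC peaks). Over all peaks of that pair the lists held 14209 and 15119 peaks, and 12337 and 16164. The longer stretch held 12.9% of all NC peaks and 16.1% of all lost NC peaks (8369).

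**Figure D1:**
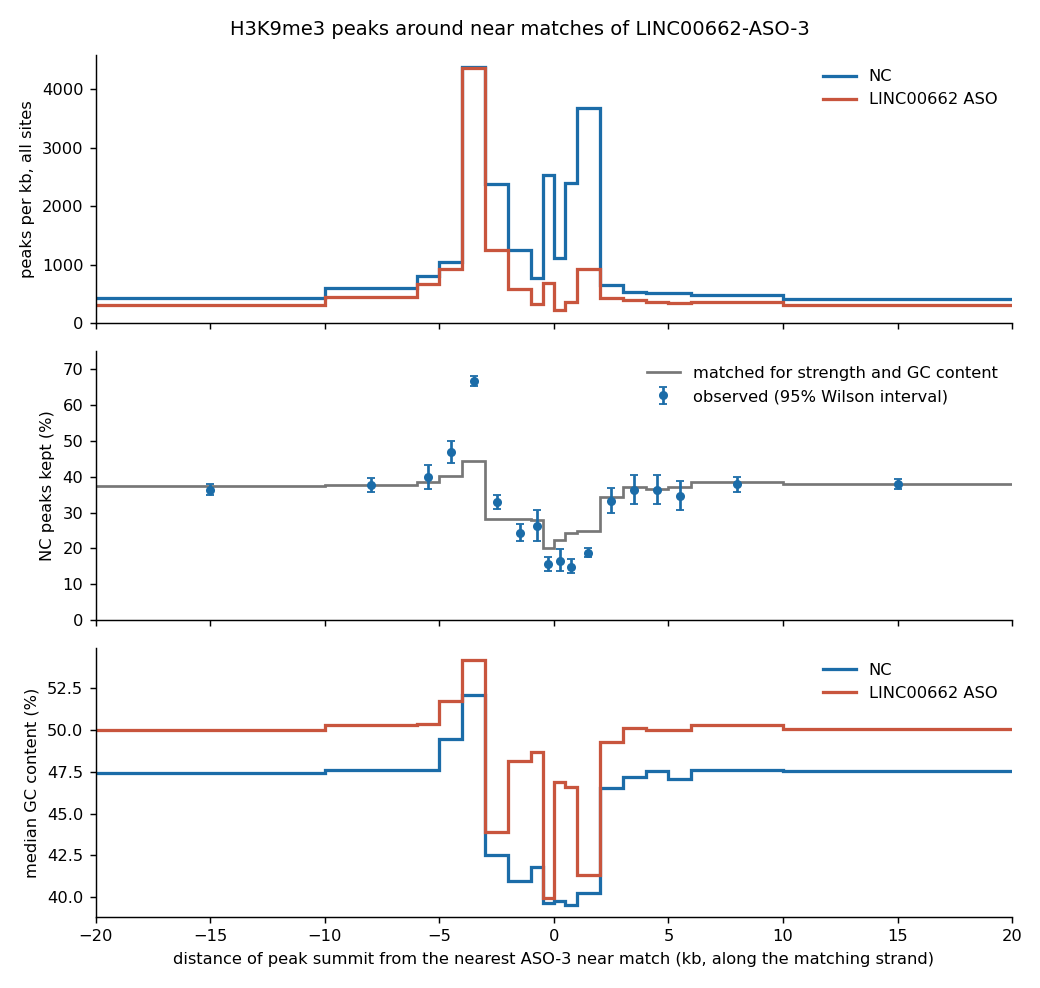
Peaks by distance of their summit from the nearest near match of LINC00662-ASO-3 (at most 3 mismatches; kb along the matching strand; bins of 0.5 to 10 kb), with the number of peaks per kb summed over all sites (top), the share of NC peaks kept with its 95% Wilson interval and the matched share (middle), and the median GC content of the peaks (bottom). From 3 kb before to 2 kb after a match NC peaks outnumber LINC00662 ASO peaks 10719 to 3586, whereas 3 to 4 kb before a match the lists meet at 4382 and 4357 peaks.

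Base composition differed along the same profile. The NC peaks from 3 kb before to 2 kb after a match had a median GC content of 40.6%, against 52.1% for those 3 to 4 kb before it and 47.9% elsewhere. To set values beside peaks of like kind, peaks were put in strength groups (10 groups of −log10 q) and GC groups (5 groups). The matched share of an NC peak is the share kept among all NC peaks of its own strength and GC group. For a LINC00662 ASO peak it is the share that was new among all LINC00662 ASO peaks of its groups. The peaks under study are counted in these shares, which draws the matched share toward the observed one. Over chromosomes 1 to 22 and X, 37.5% of NC peaks were kept and 44.7% of LINC00662 ASO peaks were new. Of the NC peaks from 3 kb before to 2 kb after a match, 21.9% were kept (21.2 to 22.7), against 25.3% matched. This stretch was not uniform. From 3 to 2 kb before a match 32.9% were kept (31.1 to 34.8), above the 28.1% matched. Of the NC peaks within 1 kb of a match, 16.7% were kept (569 of 3405; 15.5 to 18.0), against 22.7% matched. Of those 3 to 4 kb before a match, 66.8% were kept (65.3 to 68.1), against 44.4% matched. LINC00662 ASO peaks 3 to 4 kb before a match were new in 32.5% of cases, against 45.8% matched. The kept difference of 22.3 percentage points there was 12.5 with −log10 q of at least 5, 13.7 with an overlap of 50% of the peak and 11.8 with width also matched.

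Among sites with 1 to 3 mismatches, the number of peaks in LINC00662 ASO over NC was lower with fewer mismatches to ASO-3. Within 1 kb of sites with 1, 2 and 3 mismatches it was 0.195, 0.245 and 0.397 (2113, 744 and 537 NC peaks). These ratios were not matched, and the median GC content of the NC peaks was 39.6, 39.7 and 42.6%. The kept shares were 15.1, 15.6 and 24.8%, against 20.8, 21.95 and 31.5% matched, so their distance from matching was alike. Exact sites did not continue the order. They had 11 NC and 3 LINC00662 ASO peaks, a ratio of 0.273. Of the NC peaks there 2 were kept (18.2%, against 27.1% matched). Local input differed along the profile too. It was at the genome-wide level for 66.9% of the NC peaks in the longer stretch and for 6.80% of those 3 to 4 kb before a match, where its median was 2.32 times that level. When finer groups of 20 strength and 10 GC classes were used, the difference within 1 kb was −3.40 percentage points instead of −6.03, and with an overlap of 50% of the peak it was −3.56. Matched for strength without GC content, it was −18.5. The part of read placement in repeats and of base composition in this profile was not tested.

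Peaks with their summit within 1 kb of the 3 other oligonucleotides' sites were few. They numbered 24 in NC and 26 in LINC00662 ASO for ASO-1, 124 and 102 for ASO-2, and 0 and 0 for the NC ASO, of whose 23 sites 1 had the edge of a LINC00662 ASO peak within 1 kb. For ASO-2, 37.9% of the NC peaks were kept (29.8 to 46.7), against 38.6% matched.

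Across the genome, strength and GC content ordered the kept share over a wide range. In the weakest strength group 9.8% of NC peaks with the lowest GC content were kept and 40.2% of those with the highest. In the strongest group the shares were 63.3% and 79.2%. In the lowest GC group (under 43.9%) 17365 NC peaks were lost and 2115 LINC00662 ASO peaks were new, and in the highest (from 53.4%) 5946 were lost and 7590 were new. This was the only GC group in which new peaks outnumbered lost ones. At peaks paired 1 to 1, the median log2 ratio of fold enrichment went from −0.11 in the lowest GC group to 0.12 in the highest, and the median log2 ratio of width from −0.71 to −0.02. The former was negative on 23 of 23 chromosomes in the lowest GC group and on 0 of 23 in the highest.

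**Figure D2:**
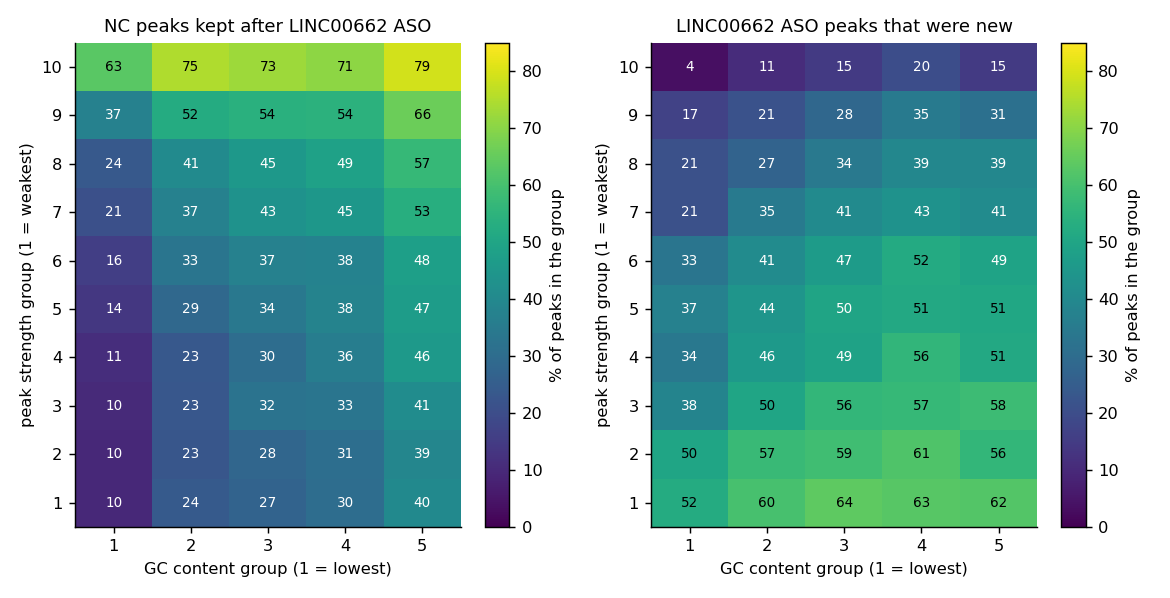
Share of NC peaks kept after LINC00662 ASO (left) and of LINC00662 ASO peaks that were new (right), in 10 groups of peak strength (−log10 q, 1 = weakest) and 5 groups of GC content (1 = lowest), with group borders set on both lists together. The kept share runs from 9.8% at the lower left to 79.2% at the upper right.

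Lost peaks were narrower and had fewer fragments than kept ones, at a similar fold enrichment. The median lost peak was 407 bp wide with 20 fragments at its summit and a fold enrichment of 3.19, and the median kept peak was 690 bp wide with 27 fragments and a fold enrichment of 3.25. Lost peaks lay a median of 7177 bp from the nearest LINC00662 ASO peak, 18.3% lay within 1 kb of one, and 5.05% lay over 100 kb away. New peaks lay closer to the NC list, at a median of 4470 bp, with 24.6% within 1 kb.

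Some of the strongest peaks of each class at genome-wide input are shown to tell what sequences they stand on. Each line gives 201 bases around the summit, on the plus strand of GRCh37, and capitals mark the pentamer GGAAT or its reverse complement ATTCC, the unit of a pericentromeric satellite.
lost, chr21:10819500-10819700: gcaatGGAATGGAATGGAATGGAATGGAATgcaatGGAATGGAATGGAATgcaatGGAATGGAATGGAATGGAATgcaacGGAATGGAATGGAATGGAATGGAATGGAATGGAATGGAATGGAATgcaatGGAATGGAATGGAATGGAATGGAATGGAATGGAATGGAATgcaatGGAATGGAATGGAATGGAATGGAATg
lost, chr10:42363366-42363566: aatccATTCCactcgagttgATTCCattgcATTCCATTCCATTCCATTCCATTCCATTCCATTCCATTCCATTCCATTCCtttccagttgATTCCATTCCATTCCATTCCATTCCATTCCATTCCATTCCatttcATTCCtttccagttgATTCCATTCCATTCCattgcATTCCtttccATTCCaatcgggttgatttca
kept, chr4:49109364-49109564: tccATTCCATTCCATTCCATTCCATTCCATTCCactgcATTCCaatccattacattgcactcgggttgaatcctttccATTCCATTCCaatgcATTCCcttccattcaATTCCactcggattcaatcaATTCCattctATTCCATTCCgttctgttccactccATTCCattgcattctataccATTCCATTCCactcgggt
kept, chr10:42361016-42361216: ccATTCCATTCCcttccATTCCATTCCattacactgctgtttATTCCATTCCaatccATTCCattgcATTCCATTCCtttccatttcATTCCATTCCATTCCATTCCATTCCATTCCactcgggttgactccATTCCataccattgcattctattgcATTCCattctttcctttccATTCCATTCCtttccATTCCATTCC
new, chr2:92236257-92236457: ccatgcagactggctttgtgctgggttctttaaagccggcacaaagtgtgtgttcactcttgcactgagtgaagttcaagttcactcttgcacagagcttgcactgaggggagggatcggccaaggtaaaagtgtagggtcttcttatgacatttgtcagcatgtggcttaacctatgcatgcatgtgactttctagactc

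The lost and the kept sequences held 17 to 34 copies of the pentamer and the new one 0. The lost satellite peaks had 51 and 46 fragments at their summits, and the nearest LINC00662 ASO peaks lay 7469 and 508 bp away. The kept ones had 90 and 84 fragments in NC and 45 and 37 in their LINC00662 ASO partners. These kept peaks were wide (chr4:49109257-49112870 and chr10:42354993-42361792), and a partner was the strongest LINC00662 ASO peak that overlapped any part. Its summit need not lie on the bases shown. The genome-wide level of the LINC00662 ASO list was 0.815 times that of NC. The new peak had 35 fragments. Peaks with at least 10 copies were rare (99 in NC and 65 in LINC00662 ASO), and 42.4% of the NC ones were kept (33.2 to 52.3) against 43.7% matched. The matched share lay inside that interval.

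Among chromosomes, number 19 kept far more of its peaks than its strength and GC content gave. On chromosome 19, 55.7% of 4731 NC peaks were kept (54.3 to 57.1) against 42.6% matched, a difference of 13.1 percentage points. The next chromosomes by this difference were 21, with 42.6% kept and 39.6% matched, and 7, with 41.2% and 38.8%. At the other end were chromosome 20, with 32.1% of 1095 peaks kept (29.4 to 34.9) and 38.2% matched, and chromosome 3, with 32.9% and 37.1%. With the density of peaks also matched, the difference on chromosome 3 was −1.46 percentage points instead of −4.18. New peaks on chromosome 19 made up 32.1% of its LINC00662 ASO peaks, against 42.9% matched.

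**Figure D3:**
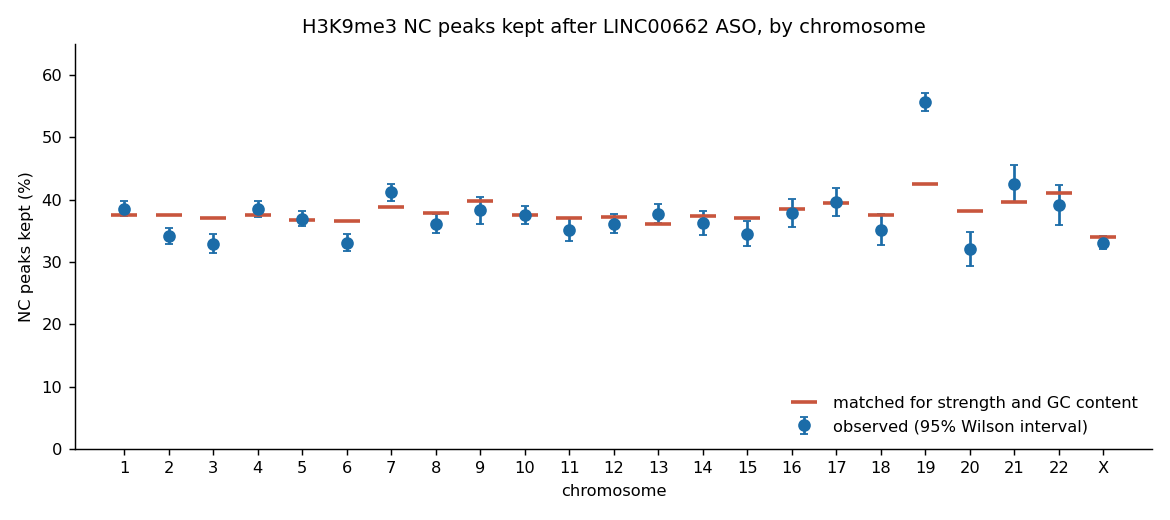
Share of H3K9me3 NC peaks kept after LINC00662 ASO on each chromosome (points, with 95% Wilson intervals) and the share matched for strength and GC content (bars). Chromosome 19 lies at 55.7% against 42.6% matched and chromosome 20 at 32.1% against 38.2%.

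The density of peaks went with the same order. NC peaks with at most 2 other NC peaks within 50 kb were kept in 32.5% of cases against 37.6% matched, and those with 11 to 55 neighbours in 50.6% against 40.4% matched. When density was matched together with strength and GC content, the difference on chromosome 19 was 4.66 percentage points instead of 13.1. With width matched in its place it was 9.90.

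Zinc finger genes kept their peaks more often than matched peaks did, on chromosome 19 and elsewhere. These genes encode C2H2 zinc finger proteins, the largest family of human transcription factors, and many carry a KRAB domain that recruits TRIM28. In the 264 zinc finger genes of chromosome 19, 59.9% of 2132 NC peaks were kept (57.8 to 62.0) against 43.8% matched, and 22.4% of 1818 LINC00662 ASO peaks were new against 40.8% matched. In the 305 zinc finger genes on other chromosomes, 54.0% of 1131 NC peaks were kept (51.1 to 56.9) against 45.1% matched, and 19.5% of 853 LINC00662 ASO peaks were new against 37.8%. Of the chromosome 19 genes with at least 5 NC peaks, 143 of 174 had more kept peaks than matched, and of the others 67 of 89. The same held for 50% of all protein-coding genes with that many peaks (993 of 1986). With density also matched, the kept differences were 5.78 percentage points on chromosome 19 and 1.56 (−1.35 to 4.45) elsewhere. On the other chromosomes the difference was 5.14 with an overlap of 50% of the peak and 8.93 without either change. New shares, here and for the other families and chromosomes, were not matched for density or width. Where NC peaks are crowded, fewer places are left for a new peak.

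ZNF678 on chromosome 1 had the most NC peaks of the family, 47, of which 31 were kept against 21.3 matched. Of its 44 LINC00662 ASO peaks 3 were new against 16.1 matched, where NC peaks covered 54.9% of the gene. ZNF420 on chromosome 19 had 42, of which 26 were kept against 17.0 matched. ZFP30 had 31, of which 17 were kept against 14.1, and ZNF44 had 31, of which 19 were kept against 14.6. ZNF721 and ZNF717, on other chromosomes, had 34 and 33 NC peaks, of which 24 and 17 were kept against 20.4 and 13.5. Along chromosome 19 zinc finger genes, cut into 5 equal parts from start to end, the kept shares were 64.8, 56.2, 57.4, 63.3 and 52.9%, and the matched shares stayed between 42.2 and 45.6%.

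**Figure D4:**
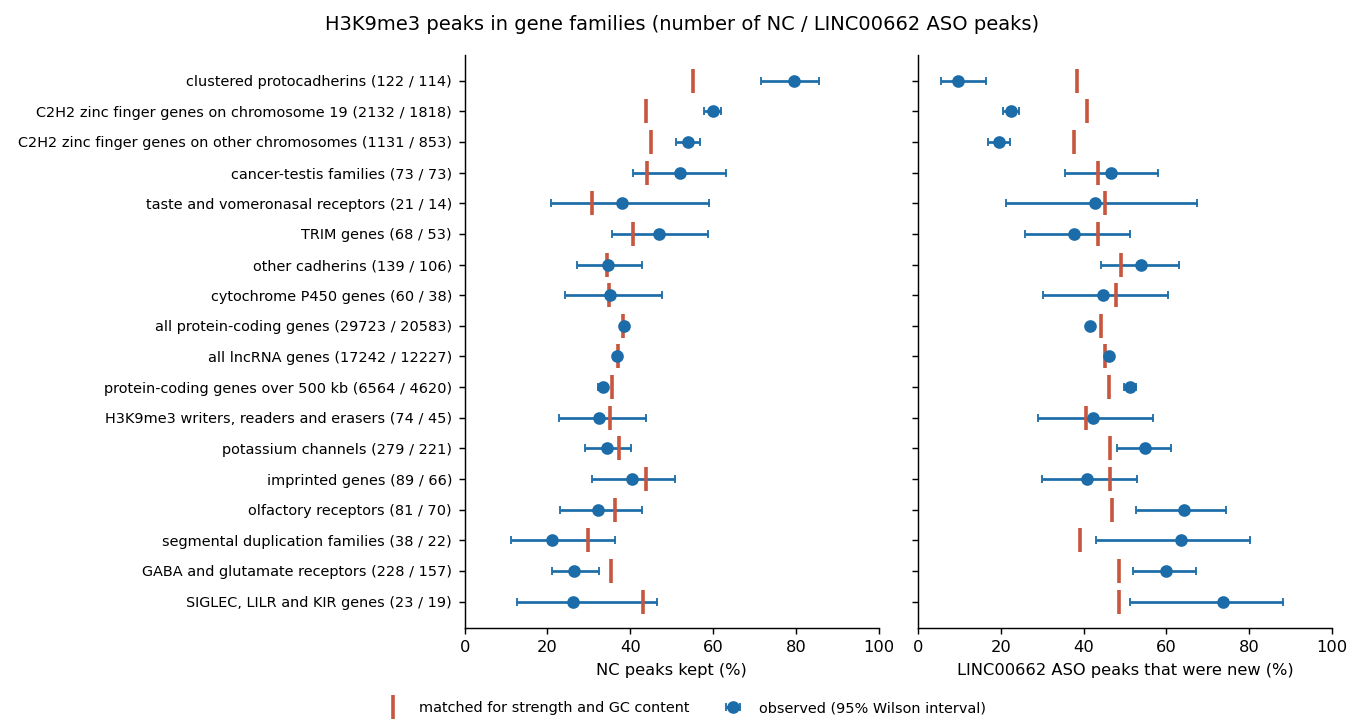
Share of NC peaks kept (left) and of LINC00662 ASO peaks that were new (right) in gene families with at least 20 NC peaks (points, with 95% Wilson intervals), beside the share matched for strength and GC content (vertical bars), with the number of NC and LINC00662 ASO peaks after each name. Clustered protocadherins lie at 79.5% kept and 9.65% new, zinc finger genes of chromosome 19 at 59.9% and 22.4%, and GABA and glutamate receptors at 26.3% and 59.9%.

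The clustered protocadherins, neuronal adhesion proteins whose isoforms are chosen by promoter, had the highest kept share of the families with at least 20 NC peaks. In these 53 genes 79.5% of 122 NC peaks were kept (71.5 to 85.7) against 55.2% matched, and 9.65% of 114 LINC00662 ASO peaks were new against 38.5% matched. PCDHGA1, which spans the other genes of the gamma cluster and shares its peaks with them, had 49 NC peaks, of which 39 were kept against 28.2 matched, and 46 LINC00662 ASO peaks, of which 3 were new against 17.4 matched. PCDHGA2, PCDHGA3 and PCDHGB1 repeat most of the same peaks. TAF7, a subunit of the general transcription factor TFIID, lies between the beta and gamma clusters (chr5:140639452-140700351 in this annotation). Along this annotated span of 60.9 kb, TAF7 had 24 NC peaks, of which 19 were kept against 10.7 matched. It had 24 LINC00662 ASO peaks, of which 2 were new against 8.39 matched. These counts are for the whole span and not for the gene start alone. Peaks covered 41.2% of TAF7 in NC and 27.4% in LINC00662 ASO. The highest fold enrichment was 8.07 in NC and 6.00 in LINC00662 ASO, at different sites. Counted from the start of the first protocadherin gene, TAF7, on the minus strand, starts at 534.63 kb. The NC peak of 8.07 lay at 533.22 kb with 57 fragments and was kept. The LINC00662 ASO summit at 533.12 kb had 27 fragments. The NC peak with its summit at 535.22 kb, just outside the gene, had 60 fragments and was lost. The LINC00662 ASO peak of 6.00 lay at 498.36 kb and was new. Over the whole 727 kb of the 3 clusters there were 182 NC and 164 LINC00662 ASO peaks, and their median widths were 699.5 and 546 bp. With density also matched, the kept difference of the protocadherins was 13.6 percentage points instead of 24.3.

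Receptors for GABA and glutamate, the main inhibitory and excitatory transmitters of the brain, lay on the other side. In these 46 genes 26.3% of 228 NC peaks were kept (21.0 to 32.4) against 35.4% matched, and 59.9% of 157 LINC00662 ASO peaks were new (52.1 to 67.2) against 48.6% matched. The difference from matching was −9.08 percentage points, and its interval included 0 with −log10 q of at least 5 (−6.54; −13.6 to 4.40) and with equal numbers of peaks (−7.12; −13.99 to 0.64). Only 6 of the 20 genes with at least 5 NC peaks had more kept peaks than matched. GRIN2B, a subunit of the NMDA receptor, had 17 NC peaks, with 12 to 28 fragments each, of which none was kept against 4.36 matched. Its 7 LINC00662 ASO peaks, with 12 to 29 fragments, were all new, against 3.77 matched. The peaks with the most fragments in each list, 28 and 29, had close summits. They lay 418.47 and 418.33 kb from the gene start without overlapping. GRIK2, a kainate receptor subunit, had 23 NC peaks, of which 7 were kept against 8.49 matched, and GRIA1, an AMPA receptor subunit, had 15, of which 2 were kept against 4.55.

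**Figure D5:**
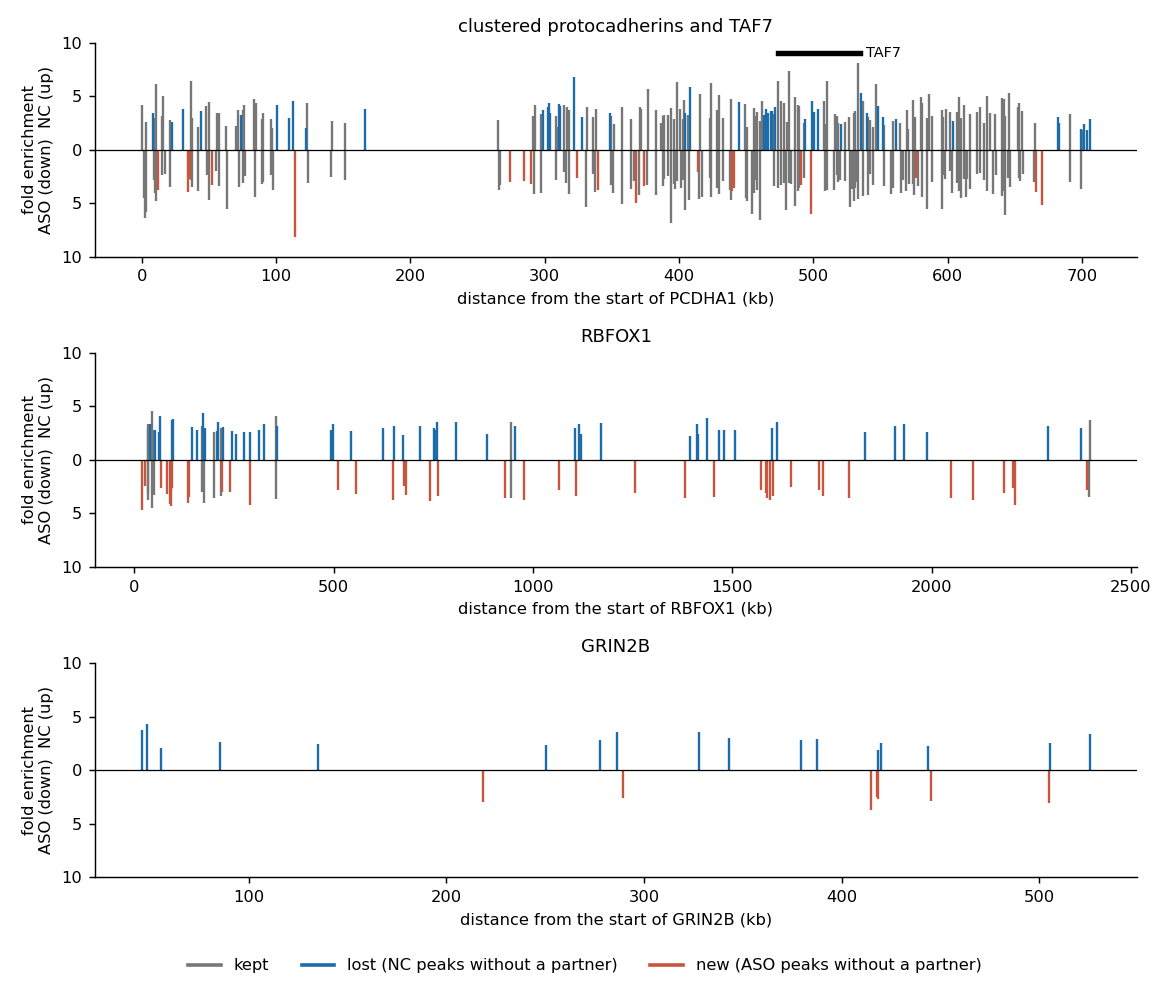
Peaks of the protocadherin clusters with TAF7, of RBFOX1 and of GRIN2B, by distance from the start of the first gene (kb), with the fold enrichment of NC peaks drawn upward and of LINC00662 ASO peaks downward. Grey peaks have a partner in the other list (137 of 182 NC peaks in the protocadherin clusters, 11 of 63 in RBFOX1 and 0 of 17 in GRIN2B), blue ones are lost and red ones are new.

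Very long genes had a lower kept share than matched as a group, although the 2 with the most NC peaks, DPP6 and PTPRN2, had more kept peaks than matched. In the 323 protein-coding genes over 500 kb, 33.3% of 6564 NC peaks were kept (32.2 to 34.5) against 35.6% matched, and 51.2% of 4620 LINC00662 ASO peaks were new against 46.2% matched. With density also matched the kept difference was −1.03 percentage points instead of −2.29, and its interval, −2.16 to 0.12, included 0.

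Of the 438 protein-coding genes with at least 15 NC peaks, TMEM132D had the lowest kept number against matching. This membrane protein gene had 63 NC peaks, of which 10 were kept against 22.2 matched. RBFOX1, a neuronal splicing regulator, also had 63, of which 11 were kept against 21.1. MACROD2, which removes ADP-ribose from proteins, had 31, of which 4 were kept against 12.1. CTNND2 (delta-catenin) had 39, of which 6 were kept against 13.2. The others were LRMDA, RUNX1, TENM1, NRXN3, RAD51B and PTPRT, with a kept number minus matched between −6.97 and −5.14. RUNX1, a transcription factor of blood formation, had 31 NC peaks, of which 4 were kept against 10.49.

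At the high end, PTPRN2, a phosphatase-like protein of secretory granules near the end of chromosome 7, had 165 NC peaks, of which 112 were kept against 75.5 matched. DPP6, an auxiliary subunit of potassium channels on the same chromosome, had 203, of which 101 were kept against 74.3. Their LINC00662 ASO peaks numbered 193 and 202. The next were ENSG00000286098 on chromosome 19 (28 of 37 kept, 17.1 matched), PCDHGA1, PCDHGA2, PCDHGA3 and PCDHGB1, SLC35F3 (26 of 43, 16.1), ZNF678 and the non-clustered protocadherin PCDH9 (52 of 103, 42.4).

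New peaks exceeded matching most in RBFOX1. It had 53 LINC00662 ASO peaks, of which 42 were new against 26.7 matched, and DSCAM, an adhesion protein of neurons, had 40, of which 31 were new against 18.2. ASIC2, an acid-sensing channel, had 70, of which 45 were new against 33.8. PTPRT, CSMD1, KCNJ6, DLGAP2, TENM2, TMEM132D and SHISA6 completed the 10. RBFOX1, PTPRT and TMEM132D were thus among both the 10 genes lowest in kept number minus matched and the 10 highest in new number minus matched. Both rankings rest on the same overlaps between the lists. In RBFOX1 the median fold enrichment was 3.02 over the 63 NC peaks and 3.40 over the 53 LINC00662 ASO peaks, and 11 peaks of each list were shared.

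Peaks at promoters had a higher kept share than the rest. Among peaks with their summit within 1 kb of a transcription start site, 47.1% of 5005 NC peaks were kept (45.7 to 48.5) against 43.4% matched. The shares were 42.5% against 40.5% in exons, 36.4% against 37.1% in introns and 37.1% against 36.97% between genes. Counted by gene, 1799 protein-coding genes had an NC peak within 1 kb of a start site, and 42.4% of them (762) had none in LINC00662 ASO. Zinc finger genes retained such a peak in 248 of 293 cases (84.6%; 80.1 to 88.3) and clustered protocadherins in 46 of 49 (93.9%; 83.5 to 97.9). Other genes did so in 743 of 1457 cases (51.0%; 48.4 to 53.6), and 412 of them had a promoter peak in LINC00662 ASO only. These counts by gene were not matched for strength, GC content, width or density.

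The strongest lost promoter peak lay at DDX19B, an RNA helicase of mRNA export, and at the overlapping ENSG00000260537 (chr16:70334095-70334742, 40 fragments in NC). CD46, a regulator of complement, followed with 35 fragments, then ZNF230 with 33 and FEM1C, which selects substrates for a ubiquitin ligase, with 59, where input was 3.53 times its genome-wide level. The strongest new ones lay at CTAGE4 (48 fragments, local input 3.01 times the level), AL136115.1 (26 fragments), SHISA6, an accessory protein of AMPA receptors (23), ZNF835 (24) and SOX17, a transcription factor of endoderm (25).

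A list of 38 genes for H3K9me3 and related heterochromatin factors, which also holds DNA methyltransferases, chromatin assembly factors and a few H3K36 enzymes, was examined next. Of these, 13 had an NC peak and 11 had a LINC00662 ASO peak, against 6467 and 5600 of all 20098 protein-coding genes, and 32.4% of the 74 NC peaks were kept (22.9 to 43.7) against 35.2% matched. SUV39H1, SUV39H2, EHMT2, TRIM28, CBX1, CBX3 and CBX5 had no peak in either list. SETDB1 had 2 NC peaks, of which 1 was kept against 0.99 matched, and 1 LINC00662 ASO peak. EHMT1, which dimethylates the same lysine, had 2 NC peaks, of which 1 was kept against 0.99 matched. Of its 5 LINC00662 ASO peaks 4 were new against 2.12 matched. Most peaks of the list lay in ATF7IP2 (19 in NC and 13 in LINC00662 ASO), ATRX (17 and 7) and ATF7IP, the partner of SETDB1 (16 and 8). In ATF7IP 6 of 16 were kept against 6.26 matched. None of the 3 NC peaks of the demethylase gene KDM4C was kept, against 1.20 matched.

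Of 1459 windows of 2 Mb with a peak, the 642 with at least 50 NC peaks were ranked by kept minus matched share. It was lowest at chr21:16000001-18000000 (8 of 50 peaks kept, 37.2% matched), which holds NRIP1, a corepressor of nuclear receptors. It was nearly as low at chr8:16000001-18000000 (10 of 50, 38.9% matched) and chr14:98000001-100000000 (16 of 97, 34.7% matched), which holds BCL11B, a transcription factor of T cells. The other windows at this end were chr5:164000001-166000000, without a protein-coding gene (10 of 59, 34.8% matched), and chr6:112000001-114000000 (11 of 60, 34.7% matched). In the chromosome 14 window 80.5% of the 82 LINC00662 ASO peaks were new, against 51.5% matched.

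The 5 highest windows held zinc finger genes or lay next to a centromere. At chr19:58000001-60000000, with 38 zinc finger genes among 54 protein-coding genes, 74.0% of 327 NC peaks were kept against 47.4% matched. Of its 318 LINC00662 ASO peaks 11.3% were new against 40.5% matched. The window chr8:144000001-146000000, with 6 zinc finger genes among 77 protein-coding genes, had 75.6% of 82 kept against 51.4%. The other 3 lay by centromeres, at chr21:10000001-12000000 (95 of 127 kept, 40.9% matched), chr1:142000001-144000000 (78 of 122, 37.9%) and chr17:24000001-26000000 (30 of 50, 36.7%). The first pair had more peaks in LINC00662 ASO, 172 and 163. Of these, 38.4% and 53.4% were new, above the 33.0% and 37.2% matched. In these 5 windows the median local input of the NC peaks was 1.48 to 2.81 times its genome-wide level, against 1.10 to 1.21 times in the 5 lowest windows. Its part in the kept shares was not tested.

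H3K27me3, the mark of Polycomb repression, was profiled in the same cell line and was not used to call peaks kept or lost. H3K27me3 peaks of the NC ASO overlapped 12.8% of kept NC peaks (12.4 to 13.1), 11.7% of lost ones (11.4 to 11.98) and 19.2% of new LINC00662 ASO peaks (18.7 to 19.7). The lists after LINC00641 and SETD5-AS1 ASOs gave the same order, with 18.5% and 18.99% of new peaks overlapped. GC content differed between the classes. From the lowest to the highest GC group, the NC ASO list overlapped 13.9, 18.8, 20.5, 20.5 and 18.7% of new peaks, 11.6, 11.4, 13.6, 14.2 and 12.9% of kept peaks and 7.96, 12.3, 13.6, 15.3 and 13.7% of lost peaks. New peaks had the highest share in each group, and lost peaks lay above kept ones in groups 2, 4 and 5. Kept and lost peaks here are of the NC list. Kept LINC00662 ASO peaks were not counted, so the share of new peaks has no comparison within its own list. Strength and width were not matched.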

How the data were processed

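H3K9me3 ChIP and input libraries from HEK293T cells (3 replicates each for NC and LINC00662 ASO) were used as pooled peak lists. Per the study's methods and the submitters' processing notes, quality control used FastQC 0.11.8 and trimming cutadapt 3.3. The authors then mapped reads with Bowtie2 2.4.2 (hg19), dropped PCR duplicates (GATK), pooled the replicates and ran MACS2 2.2.7.1 in paired-end mode against pooled input. The stated steps name no filter on mapping quality, and how reads with several equal placements bear on peaks in repeats was not tested. The authors deposited for each peak a fold enrichment (a ratio over local input), a −log10 p-value, a −log10 q-value and a summit offset.

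The number of fragments at a summit and the local input level were solved from the deposited fold enrichment and −log10 p-value, and a whole number was found for 100% of peaks (tolerance 0.02). The lowest local level, the genome-wide level, was 4.29 fragments for NC and 3.50 for LINC00662 ASO, so the LINC00662 ASO list was the shallower. The median summit held 22 and 20 fragments.

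Matched shares were taken over 10 strength and 5 GC groups with borders from both lists, on chromosomes 1 to 22 and X. Peaks on other contigs (977 and 961) entered only the overall counts. Genes came from GENCODE 44 lifted to GRCh37, whose chromosomes have the coordinates of hg19, and families from symbol patterns. Genes were named by rule. TAF7, LINC00662 and the H3K9me3 machinery were fixed. By kept number minus matched (at least 15 NC peaks) the 10 lowest and the 10 highest were named. By new number minus matched (at least 15 LINC00662 ASO peaks) the 10 highest were named. Also named were the 3 genes with most NC peaks in a family and the 5 strongest lost and new promoter peaks (local input under 5 times the genome-wide level). So were 5 windows of 2 Mb at each end (at least 50 NC peaks). The ASO sequences came from the study's supplement and were searched on both strands. Sequences of the 2 strongest peaks of a class at genome-wide input were taken outside chromosome 8, and 1 of them is not reported here. Overlap and matching were tested on simulated data. Scripts ran in Python 3.11.15 with pysam 0.24.0, scipy 1.17.1, pandas 2.3.3 and numpy 2.4.6. Alternatives tried were a higher q minimum, a larger overlap, merging of nearby peaks, leaving out input-rich peaks, equal list sizes and other matching. The members and lists were chosen with earlier results of these data known, and the profile around ASO-3 matches and the matching on width and density were chosen after values were seen.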

Additional observations from a re-analysis of the deposited data

How the results depend on the processing

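No paired analysis was possible because each deposited list pools its 3 replicates, and for the same reason no replicate could be left out. Median summits held 22 and 20 fragments, and which weak peaks a deeper library would list was not tested. The kept share of NC peaks, 37.9%, was 28.5% when both lists were limited to −log10 q from 5 up, 26.7% with an overlap of at least 50% of the peak, 39.7% with peaks within 1 kb merged, 36.8% without input-rich peaks and 43.1% when as many NC peaks as LINC00662 ASO peaks were taken, by strength. The new share, 44.4%, was 51.7, 51.7, 45.0, 45.8 and 53.9% in the same order. The number ratio, 0.716, was 0.619 with the q minimum, 0.751 with merging and, by construction, 1 with equal numbers. The share of genes that kept a promoter peak, 57.6%, was 43.2% with the q minimum, 43.0% with 50% overlap and 62.0% with equal numbers. The paired log2 ratio of fold enrichment turned from 0.03 to −0.067 with equal numbers.

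Differences from matching, in percentage points, held their sign under the 9 alternatives, with 1 exception. The matching on width and on density, and all settings for the ASO-3 stretches, chromosomes 20 and 3 and the families other than chromosome 19 zinc finger genes and genes over 500 kb, were chosen after seeing the data. For chromosome 19 the value of 13.1 was 10.4 with the q minimum, 9.40 with 50% overlap, 14.6 with merging, 15.98 without GC content, 9.90 with width and 4.66 with density. For its zinc finger genes 16.1 was 13.6, 11.5 and 18.7 under the first 3 of these, 11.9 with width and 5.78 with density. For genes over 500 kb −2.29 was −1.03 with density. Within 1 kb of an ASO-3 near match −6.03 was −3.56 with 50% overlap, −18.5 without GC content and −3.40 with 20 by 10 groups. For peaks 3 to 4 kb before one, 22.3 was 12.5 with the q minimum, 13.7 with 50% overlap, 28.9 without GC content and 11.8 with width. The exception was the olfactory receptors, where −4.27 was 3.64 with the q minimum. Of 133 values under alternatives, the main results had 34 within the interval of the value reported, 35 outside it and 1 of the other sign, and the others had 57, 5 and 1.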

Other observations

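Several families not described above had kept shares whose intervals held the matched share. Cancer-testis families (MAGE, SPANX, CT45, PRAMEF and others) kept 52.1% of 73 NC peaks (40.8 to 63.1) against 44.1% matched, and both lists held 73 peaks there. TRIM genes kept 47.1% of 68 (35.7 to 58.8) against 40.6%, and imprinted genes 40.4% of 89 (30.9 to 50.8) against 43.7%. Potassium channels kept 34.4% of 279 (29.1 to 40.2) against 37.3%, but 54.8% of their 221 LINC00662 ASO peaks were new (48.2 to 61.2) against 46.5% matched. KCNQ1, which is both imprinted and a potassium channel, had 27 NC peaks, of which 15 were kept against 11.5 matched. Olfactory receptors, which are silent outside the nose, kept 32.1% of 81 (22.9 to 42.9) against 36.4%, and 64.3% of their 70 LINC00662 ASO peaks were new (52.6 to 74.5) against 46.9%. HOX genes, which H3K27me3 covers in most cells, had 2 H3K9me3 peaks in each list. None of the NC ones was kept, against 0.94 matched. Interferon genes had no peak in either list.

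At peaks paired 1 to 1 in both lists (27575 pairs), the LINC00662 ASO peak was the narrower in 68.6%. The share was 69.3% in zinc finger genes of chromosome 19, 76.5% in those on other chromosomes and 73.8% in clustered protocadherins.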
